A study of Mus musculus with 8 samples.

Results

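The 52 genes described here encode the machinery of mitosis: the kinases and cyclins that start it, the checkpoint that times it, the kinetochores and spindle that move chromosomes, and the proteins that cut the cell. They were taken by gene symbol from a deposited table of 55376 genes, and 52 of 52 were found. Their RNA was measured by sequencing in macrophages grown from mouse bone marrow. The marrow came from male mice of 13 weeks, 3 for each genotype, labelled DNMT3A-HET (HET) or wild type (WT). Dnmt3a encodes a DNA methyltransferase, and the series title concerns its reduction in blood cells together with a high fat diet. All cultures, controls included, were grown with 50 ng/mL M-CSF, the growth factor that makes marrow cells become macrophages and divide. Some cultures received 10 ng/mL IL-6, a cytokine that signals through STAT3, from day 6 for 2 days, the others did not, and RNA was taken from all on day 8. The 4 groups are WT control, WT IL-6, HET control and HET IL-6, with 2 libraries each, numbered 1 and 2. The labels name neither the allele behind HET nor the mouse behind a library, and do not say whether mice were pooled, so p-values rest on differences between libraries that may be technical repeats.

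Entry into mitosis is driven by the kinase Cdk1 bound to B-type cyclins. Chromosomes are then compacted by condensin, attached through kinetochores at their centromeres to spindle microtubules, held back by the spindle checkpoint until each is attached, and released when the anaphase-promoting complex (APC/C) lets separase cut cohesin. Most of these genes are transcribed only late in the cell cycle, so in a mixed population their RNA follows the fraction of cells in G2 and mitosis. Bone-marrow-derived macrophages still divide under M-CSF in the first week or so of culture. In bulk RNA, fewer dividing cells and less RNA per dividing cell cannot be told apart.

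Late cell cycle genes are known to share promoter elements: CCAAT boxes bound by NF-Y, and the cell cycle genes homology region (CHR), through which the DREAM repressor and the activators B-MYB and FOXM1 act. Promoter windows from 250 bases before to 50 bases after the gene start (RefSeq, GRCm38.p6) could be matched to 43 of the 52 genes. CHR letters (TTTGAA or TTCGAA, either strand) stood in a window of 33 of the 43, or 76.7%, against 21.7% of all 27025 genes with a window. A gene counts if any of its windows holds the letters; of the 43, Ect2 and Prc1 have more than 1 window. CCAAT on either strand stood in 32, or 74.4%, against 41.1% of all genes. Both stood in 1 window in 29, or 67.4%, against 8.61% of all genes. E2F letters (TTTCGCGC, TTTGGCGC or GGCGGGAA, either strand), typical of genes used earlier, in S phase, stood in 3 (Cdk1, Kif15 and Ncapd2), or 6.98%, against 3.39%. None of these motifs lies inside another. The windows of Cdk1, of cyclin B2 (Ccnb2), of the APC/C activator Cdc20 and of the kinase Plk1 show the shared layout, and that of survivin (Birc5) holds none of the motifs. Capitals mark motif letters, each window reads 5′ to 3′ on the strand of its gene, and the gene start lies after the first 250 bases.
Cdk1 (chr10:69352863-69353162, minus strand): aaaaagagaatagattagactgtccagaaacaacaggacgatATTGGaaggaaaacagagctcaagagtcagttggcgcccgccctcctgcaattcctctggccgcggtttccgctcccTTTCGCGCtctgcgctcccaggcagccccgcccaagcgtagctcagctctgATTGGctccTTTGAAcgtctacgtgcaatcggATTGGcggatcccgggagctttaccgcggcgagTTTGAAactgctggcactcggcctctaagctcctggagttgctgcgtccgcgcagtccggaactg
Ccnb2 (chr9:70421505-70421804, minus strand): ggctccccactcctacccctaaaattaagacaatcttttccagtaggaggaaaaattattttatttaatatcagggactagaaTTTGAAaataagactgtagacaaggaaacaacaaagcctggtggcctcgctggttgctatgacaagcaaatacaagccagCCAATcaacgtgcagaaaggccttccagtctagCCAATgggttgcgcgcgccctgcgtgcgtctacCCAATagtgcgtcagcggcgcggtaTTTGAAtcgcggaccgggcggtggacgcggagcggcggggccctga
Cdc20 (chr4:118437294-118437593, minus strand): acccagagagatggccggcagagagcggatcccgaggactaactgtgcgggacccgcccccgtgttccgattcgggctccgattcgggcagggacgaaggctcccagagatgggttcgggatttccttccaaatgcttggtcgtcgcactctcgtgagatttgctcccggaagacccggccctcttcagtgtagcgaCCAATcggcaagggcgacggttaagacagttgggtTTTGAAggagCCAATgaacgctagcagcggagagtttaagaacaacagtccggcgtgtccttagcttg
Plk1 (chr7:122159185-122159484, plus strand): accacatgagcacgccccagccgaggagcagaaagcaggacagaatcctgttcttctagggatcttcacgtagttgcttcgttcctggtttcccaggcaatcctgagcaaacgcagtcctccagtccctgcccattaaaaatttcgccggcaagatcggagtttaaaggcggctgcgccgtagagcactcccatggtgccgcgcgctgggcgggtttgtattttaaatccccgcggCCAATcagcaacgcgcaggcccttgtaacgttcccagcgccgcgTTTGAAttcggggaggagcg
Birc5 (chr11:117848987-117849286, plus strand): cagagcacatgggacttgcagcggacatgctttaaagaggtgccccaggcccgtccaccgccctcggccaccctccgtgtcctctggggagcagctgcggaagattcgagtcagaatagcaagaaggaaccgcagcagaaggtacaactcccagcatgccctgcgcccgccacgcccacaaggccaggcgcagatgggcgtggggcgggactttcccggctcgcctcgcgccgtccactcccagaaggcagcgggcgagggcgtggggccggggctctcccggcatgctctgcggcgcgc
In Cdc20 the CHR lies 18 bases before the start between a pair of CCAAT boxes at 53 and 8 bases before it. Cdk1 carries CHR letters at 71 and 15 bases before the start and 3 inverted CCAAT boxes. A match is a match of letters and shows no binding.

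Counts totalled 18926641 to 24881197 per library in 7 libraries and 50137897 in HET IL-6 number 2. Each of the 52 genes had between 163 and 33410 counts in every library, and 52 of 52 passed the filter on low counts. Dnmt3a was at 275 and 244 CPM (counts of a gene scaled to the library total by the TMM method) in WT control and at 166 and 248 in HET control, and at 175 and 183 in WT IL-6 and 140.1 and 213 in HET IL-6. The HET libraries numbered 2 were thus not below the WT libraries, and HET below means the libraries labelled so. Counts or fold changes without them are given for the 52 genes and for other lists of the division programme. Macrophage markers (10 of 10 tested, Adgre1, Csf1r and Cd68 among them) summed to 12228 to 14494 CPM in every library. Lyz2 gave the most to this sum, and single markers moved with IL-6, as given below. The erythroid, T and NK cell, and mast cell lists summed to at most 1.41 CPM in any library. Genes on the other strand overlap 29.3% of the exon bases of Kif20a, 22.8% of Ube2c and 15.1% of Kif4. They also overlap 13.4% of Ncapg, 12.5% of Ccna2 and 11.1% of Prc1, and none of these 6 is overlapped on its own strand. The strand option of the read counting is not given, so the values of these 6 are uncertain. Another 8 genes are overlapped by at most 7.09%, some of them on their own strand.

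Per kilobase of exon, the proliferation marker Mki67 was the highest in WT control at 85.7 CPM per kilobase, ahead of the DNA topoisomerase Top2a at 60.5 and Ccnb2 at 57.4. The centriole kinase Plk4 (2.83), the cohesin acetyltransferase Esco2 (3.73) and the centrosome kinase Nek2 (4.04) were the lowest, and the median of the 52 was 16.2 CPM per kilobase. Summed over the 52 genes, the level was 5218 and 5742 CPM in WT control, 6176 and 5493 in WT IL-6, 6415 and 6037 in HET control, and 4606 and 4474 in HET IL-6. WT control and WT IL-6 overlapped, both HET control libraries lay above both WT control libraries, and both HET IL-6 libraries lay below the 6 others. The summed genes took 0.441% to 0.653% of all counts in a library. In 34 of the 52 genes the HET IL-6 libraries were the 2 lowest of all 8, which held for 12.5% of all tested genes. The highest library was a HET control library in 29 genes and a WT IL-6 library in 22.

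**Figure D1:**
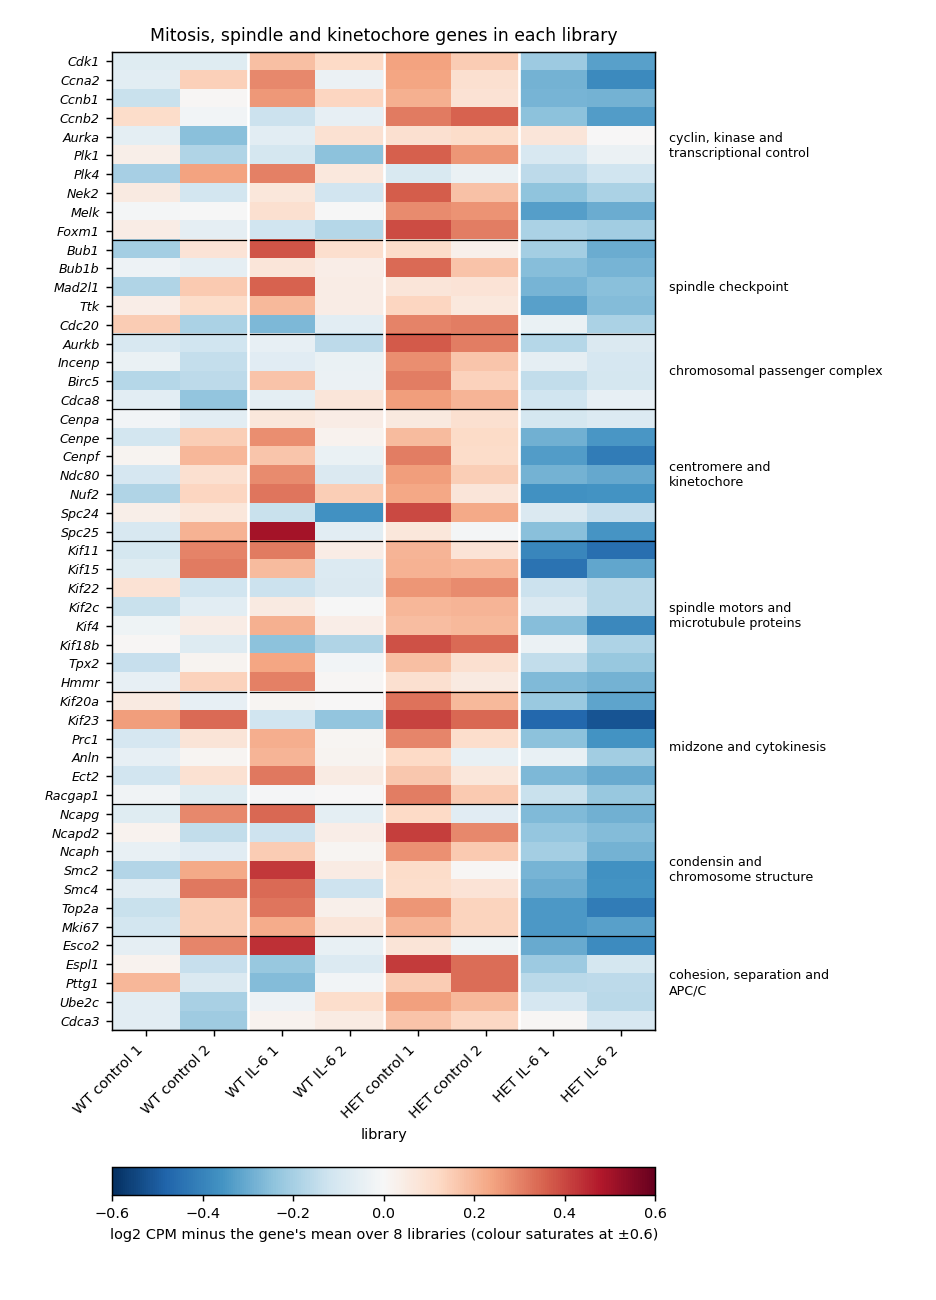
Each of the 52 genes (rows, grouped by role) in each of the 8 libraries (columns), as log2 CPM minus the mean of the gene over the libraries. The HET IL-6 columns are blue in nearly every row and the HET control columns mostly red, while WT control and WT IL-6 vary more between their own libraries.

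IL-6 changed few of these genes in WT macrophages. By edgeR's quasi-likelihood test (adjusted p under 0.05 over all tested genes), 1 of the 52 fell and 0 rose, where 10.4% of all 13721 tested genes fell and 7.91% rose. The 1 gene was Kif23 (chromosome 9, 61915905 to 61946774, mm10), a kinesin that with Racgap1 forms the centralspindlin complex of the spindle midzone. Kif23 was at 143 and 152 CPM in WT control, 110.5 and 102 in WT IL-6, 159 and 152 in HET control and 86.5 and 83.8 in HET IL-6. In each genotype, both IL-6 libraries lay below both control libraries, and the log2 fold change in WT was -0.47 ± 0.08 (edgeR adjusted p = 0.000755).

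The other 51 genes did not pass, though 7 of the 52 had an unadjusted p under 0.05. Their log2 fold changes were small and mostly positive: 39 of the 52 were above 0, and the median was 0.10, against -0.01 over all tested genes. The checkpoint kinase gene Bub1 had the highest log2 fold change, 0.30 ± 0.11 (edgeR adjusted p = 0.0718), from 75.0 and 91.4 CPM in control to 112 and 92.5 with IL-6. Cyclin B1 (Ccnb1) was at 0.26 ± 0.09 (edgeR adjusted p = 0.0501) and Cdk1 at 0.22 ± 0.08 (edgeR adjusted p = 0.0633). On the negative side, Spc24, a subunit of the Ndc80 complex that binds microtubules at the kinetochore, was at -0.29 ± 0.13 (edgeR adjusted p = 0.142), and the transcription factor Foxm1 at -0.14 ± 0.08. In 15 genes both IL-6 libraries lay above both control libraries and in 5 below, which held for 24.1% and 28.4% of all tested genes.

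The WT result moves with its libraries. The median log2 fold change of the 52 genes was 0.13 without library 2 of WT control and 0.16 without library 2 of WT IL-6. Without library 1 of WT control it was 0.04, and without library 1 of WT IL-6 it was 0.0093. With offsets for GC content and transcript length, 4 genes passed as rising and 2 as falling. The value of Kif23 stayed below 0 without each library in turn.

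In HET macrophages the same exposure was followed by lower levels across the set. Of the 52 genes, 40 fell and 0 rose by edgeR, where 9.41% of all tested genes fell and 8.87% rose, and 48 had an unadjusted p under 0.05. The log2 fold change was below 0 in 52 of 52 genes, with a median of -0.43 against 0.01 over all tested genes. In 51 genes both IL-6 libraries lay below both control libraries, as in 32% of all tested genes. The range ran from Kif23 at -0.87 to Aurka at -0.07.

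Among the cyclins, kinases and their transcription factor, 8 of 10 fell. Ccnb2, an activating subunit of Cdk1, was at 91.8 and 84.0 CPM in WT control, 77.7 and 82.2 in WT IL-6, 106 and 109 in HET control and 71.6 and 67.4 in HET IL-6. Its HET IL-6 libraries were the lowest of the 8 and its HET control libraries the highest, and the log2 fold change was -0.62 ± 0.08 (edgeR adjusted p = 9.24e-05). Cdk1 (chromosome 10, 69335146 to 69352938, mm10) was at 108 and 108 CPM in WT control, 129 and 124 in WT IL-6, 135 and 127 in HET control and 98.1 and 90.9 in HET IL-6. Its HET libraries did not overlap, and it fell by 0.47 ± 0.08 on the log2 scale (edgeR adjusted p = 0.000736). The kinase gene Melk fell by 0.59 ± 0.08 and Foxm1, which activates many genes of this set, by 0.55 ± 0.08. The centrosomal kinase Aurka (-0.07 ± 0.09, edgeR adjusted p = 0.689) and Plk4 (-0.07 ± 0.13, edgeR adjusted p = 0.781) did not pass, with Aurka at 50.2 and 50.7 CPM in HET control and 49.4 and 47.1 in HET IL-6.

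In the spindle checkpoint, 3 of 5 genes fell. Bub1b, which with Mad2 holds Cdc20 inactive, was at 85.9 and 84.4 CPM in WT control, 92.0 and 90.1 in WT IL-6, 111 and 98.6 in HET control and 73.5 and 72.2 in HET IL-6. Its log2 fold change in HET was -0.52 ± 0.08 (edgeR adjusted p = 0.000387). The kinase Ttk was at -0.38 ± 0.10 and Cdc20 at -0.42 ± 0.11, while Bub1 (-0.32 ± 0.11, edgeR adjusted p = 0.0525) and Mad2l1 (-0.34 ± 0.11, edgeR adjusted p = 0.0528) were just outside the threshold. The chromosomal passenger complex, which corrects faulty attachments, fell in 4 of 4 members: the kinase Aurkb by 0.46 ± 0.08, Birc5 by 0.35 ± 0.09, Cdca8 (borealin) by 0.31 ± 0.09 and the scaffold Incenp by 0.30 ± 0.08 on the log2 scale.

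At centromeres and kinetochores, 5 of 7 genes fell. Nuf2, a subunit of the Ndc80 complex (chromosome 1, 169497934 to 169531464, mm10), was at 49.1 and 60.7 CPM in WT control, 69.3 and 61.6 in WT IL-6, 65.2 and 58.3 in HET control and 43.1 and 43.3 in HET IL-6. The HET IL-6 libraries were the lowest of the 8, and the log2 fold change was -0.52 ± 0.11 (edgeR adjusted p = 0.00345). Cenpf fell by 0.59 ± 0.10, Ndc80 itself by 0.50 ± 0.11 and the kinetochore motor Cenpe by 0.47 ± 0.10. The centromeric histone gene Cenpa was at -0.17 ± 0.07 (edgeR adjusted p = 0.135) and Spc25 at -0.33 ± 0.15 (edgeR adjusted p = 0.167).

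The spindle motors and microtubule proteins fell in 8 of 8 members. Kif11, the motor that keeps the spindle bipolar, was at 86.6 and 115 CPM in WT control, 116 and 96.2 in WT IL-6, 108 and 98.7 in HET control and 71.2 and 68.2 in HET IL-6. Both HET IL-6 libraries lay below the 6 others, and the log2 fold change was -0.57 ± 0.12 (edgeR adjusted p = 0.00422). Kif15 was at -0.58 ± 0.12 and the chromokinesin Kif4 at -0.51 ± 0.09, and the spindle assembly factor Tpx2 changed least, at -0.32 ± 0.09. In the midzone and cytokinesis group 5 of 6 fell, led by Kif23 at -0.87 ± 0.08 (edgeR adjusted p = 3.37e-06), with Kif20a at -0.53 ± 0.08 and the microtubule crosslinker Prc1 at -0.51 ± 0.10. Anillin (Anln), a scaffold of the contractile ring, was at -0.16 ± 0.09 (edgeR adjusted p = 0.263) and was the 1 gene of the 52 whose HET libraries overlapped.

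Condensin and chromosome structure genes fell in 4 of 7 members. Top2a, which untangles sister chromatids (chromosome 11, 98992943 to 99024189, mm10), was at 493 and 599 CPM in WT control, 676 and 553 in WT IL-6, 650.4 and 593 in HET control and 426 and 404 in HET IL-6. Its HET IL-6 libraries were the lowest of the 8, with a log2 fold change of -0.58 ± 0.11 (edgeR adjusted p = 0.00185). The condensin subunit Ncapd2 fell by 0.60 ± 0.09 and Mki67 by 0.50 ± 0.09, whereas the condensin core genes Smc2 (-0.38 ± 0.13, edgeR adjusted p = 0.0661) and Smc4 (-0.42 ± 0.14, edgeR adjusted p = 0.0585) did not pass. In cohesion, separation and APC/C function 3 of 5 fell. Separase (Espl1) was at 62.2 and 55.7 CPM in WT control, 52.4 and 57.9 in WT IL-6, 82.0 and 77.4 in HET control and 52.8 and 57.1 in HET IL-6, and its log2 fold change in HET was -0.54 ± 0.09 (edgeR adjusted p = 0.000749). Its inhibitor securin (Pttg1) was at -0.41 ± 0.12 and Ube2c, the enzyme that hands ubiquitin to the APC/C, at -0.35 ± 0.08.

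Beside this fall, the summed level of 10 progenitor markers was 23.8 to 31.7 CPM in HET control and 15.5 to 18.4 in HET IL-6, with 19.6 to 19.9 in WT control and 35 to 45.03 in WT IL-6. Cd34 made most of it, and the granule genes Mpo, Elane and Prtn3 were at 0.262 CPM or less in every library. The 5 monocyte markers summed to 265 to 318 CPM in HET control and 119 to 125 in HET IL-6, mostly Cx3cr1 and Nr4a1, while Ly6c2 was at 0.322 CPM or less. The summed levels of other lists rose where the set fell. The 6 megakaryocyte markers summed to 122.5 to 132.3 CPM in HET control and 272 to 296 in HET IL-6, with 123.5 to 130.9 in WT control and 197 to 202 in WT IL-6, nearly all of it Pf4, while Gp1bb was at 0 in every library. The 5 endothelial markers summed to 27.9 to 30.3 CPM in HET control and 55.2 to 56.0 in HET IL-6, with 32.4 to 34.9 in WT control and 52.2 to 55.9 in WT IL-6, nearly all of it Kdr, with Emcn at 0. The 8 neutrophil markers summed to 4.85 to 5.82 CPM in HET control and 5.98 to 7.13 in HET IL-6. In WT they summed to 2.67 to 3.84 CPM in control and 11 to 12.4 with IL-6, mostly Mmp8. The rise in HET was that of Mmp8, from 3.19 and 2.30 to 5.51 and 4.66 CPM. S100a9 went the other way, from 1.225 and 1.17 to 0.497 and 0.628 CPM, and Ltf and Ngp were also lower with IL-6 in HET. The stromal list reached at most 10.4 CPM in any library, and the dendritic cell and B cell lists at most 1.898. By edgeR 4 of the 10 macrophage markers rose and 1 fell with IL-6 in HET, where 8.87% and 9.41% of all tested genes did. In WT 3 rose and 0 fell, against 7.91% and 10.4%. After IL-6 3 were higher and 3 lower in HET than in WT, against 13.2% and 8.8%. Csf1r was at 2449 and 2376 CPM in HET control and 1854 and 1909 in HET IL-6. Its WT values were 2099 and 1958 in control and 2089 and 2179 with IL-6. The part of any of these markers in the result was not tested.

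Leaving out 1 library lowered the count of genes that fell from 40 to 18 when library 1 of HET control was left out, to 19 for library 2 of HET IL-6 and to 26 for its library 1, and 15 genes were called in each of the 8 such fits, among them Cdk1, Ccnb2, Kif23, Top2a and Aurkb. Without both HET libraries numbered 2 the median was -0.45 and 12 genes were called, and without both numbered 1 it was -0.40 and 4 were called, in fits where the lone library of a group is taken to vary like the others.

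**Figure D2:**
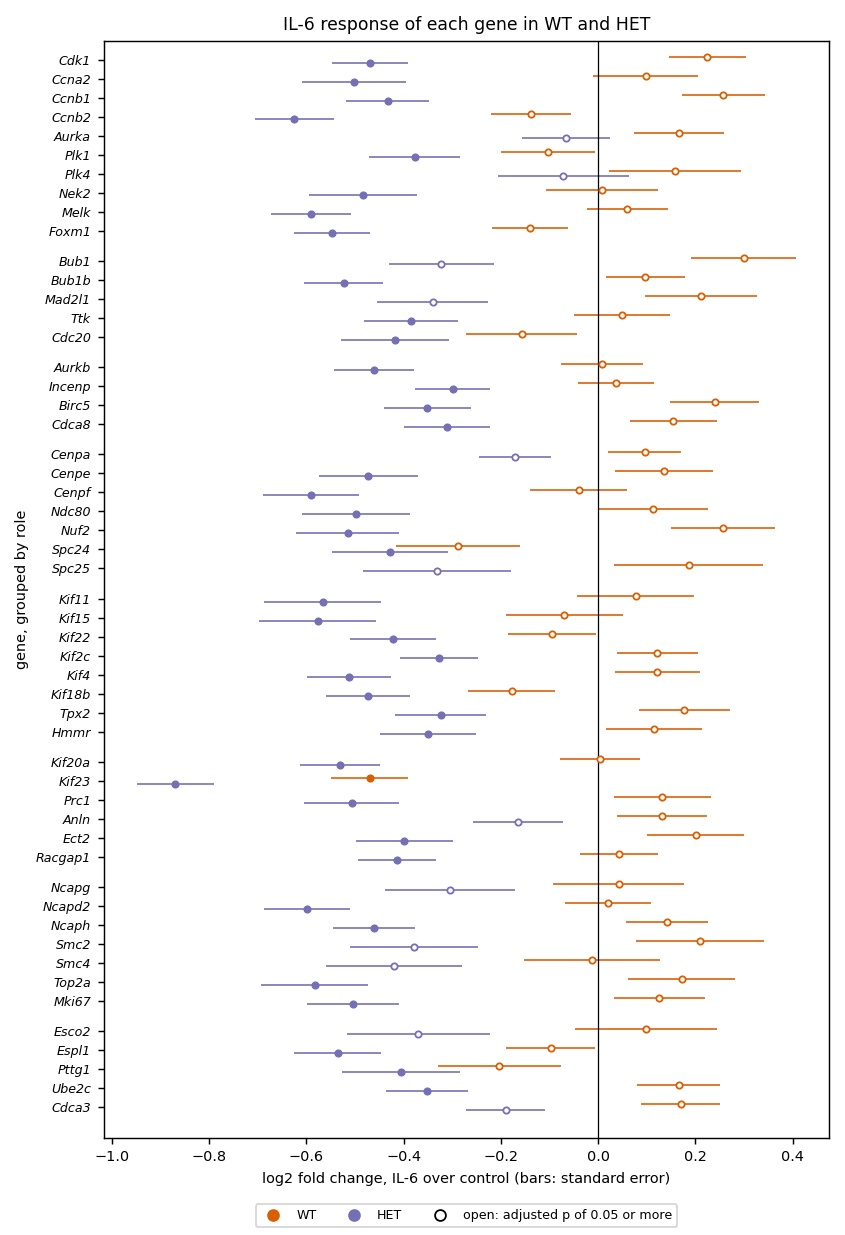
Log2 fold change of IL-6 over control for each of the 52 genes in WT (orange) and HET (purple), with standard errors, grouped by role. The HET values lie left of 0 in 52 of 52 genes and 40 are filled (adjusted p under 0.05), while the WT values scatter around 0 and only Kif23 is filled.

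Whether the response itself differed between the genotypes was tested by the interaction of genotype and IL-6. The HET minus WT difference of the log2 response was below 0 in 52 of 52 genes, with a median of -0.50 against 0.02 over all tested genes. It passed for 29 genes, all lower in HET, where 3.6% of all tested genes passed in that direction and 4.52% in the other. The number passing was 6 of 10 cyclins, kinases and regulators, 2 of 5 checkpoint genes, 3 of 4 passenger complex genes, 4 of 7 centromere and kinetochore genes, 4 of 8 spindle motors and microtubule proteins, 5 of 6 midzone and cytokinesis genes, 4 of 7 condensin and chromosome structure genes, and 1 of 5 of the last group, Ube2c. The largest differences were those of Nuf2 (-0.77 ± 0.15, edgeR adjusted p = 0.00751), Top2a (-0.76 ± 0.16, edgeR adjusted p = 0.00975), Cdk1 (-0.69 ± 0.11, edgeR adjusted p = 0.00209) and Ccnb1 (-0.69 ± 0.12, edgeR adjusted p = 0.00378). In Cdk1 the IL-6 libraries lay above the control libraries in WT and below them in HET, as the values above show. Kif23, which fell in both genotypes, still differed by -0.40 ± 0.11 (edgeR adjusted p = 0.0427). Spc24 (-0.14 ± 0.18), Pttg1 (-0.20 ± 0.18) and Plk4 (-0.23 ± 0.19) had the smallest differences and did not pass. The difference was not particular to the 52 genes: 21 of 40 DNA replication genes, a list described below, also passed, with 0 higher. Their median was -0.485, and 26 passed with GC and length offsets. Of 37 other spindle, centrosome and cytokinesis genes 8 passed, and of 34 centromere and kinetochore partners 3, also with 0 higher.

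Across the 52 genes, the WT and HET responses, which share no library, had a Pearson correlation of 0.472; genes in 1 library share its depth and composition, so this is a description. The count of 29 fell to 4 when library 1 of HET control was left out, 18 for its library 2, 11 for either HET IL-6 library and 15 for library 1 of WT IL-6, and 4 genes (Cdk1, Ccnb1, Melk and Kif4) were called in each such fit. It was 3 (median -0.53) without both HET libraries numbered 2 and 0 (median -0.48) by edgeR without both numbered 1, where 28 genes still had an unadjusted p under 0.05.

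**Figure D3:**
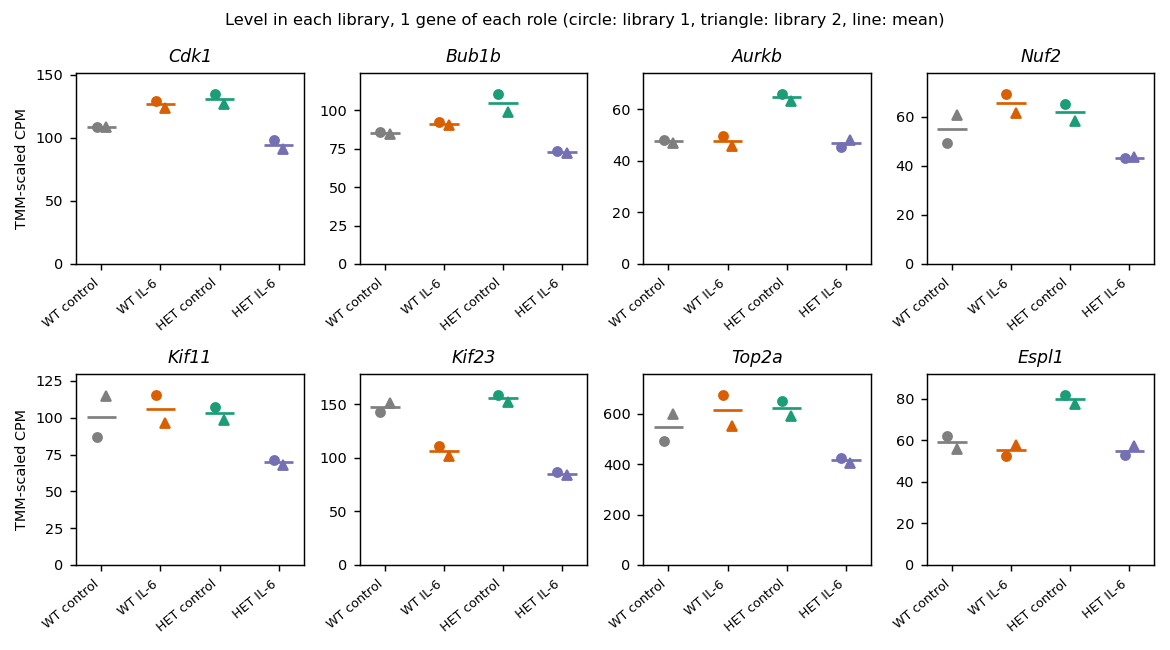
Level in each library, in TMM-scaled CPM from 0, of 1 gene of each role, with circles for library 1, triangles for library 2 and lines for group means. HET IL-6 lies below HET control in each of the 8 panels, Aurkb and Espl1 are highest in HET control with the other 3 groups overlapping, and Kif23 is lower with IL-6 in both genotypes.

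Without IL-6, the HET macrophages had higher levels of part of the set. Of the 52 genes, 10 were higher in HET and 0 lower by edgeR, where 2.81% of all tested genes were higher and 2.05% lower, and 26 had an unadjusted p under 0.05. The median log2 fold change was 0.21, against -0.004 over all tested genes, and 47 genes were above 0. In 31 genes both HET libraries lay above both WT libraries, against 25.3% of all tested genes. This comparison uses the HET control and WT control libraries that also stand in the IL-6 comparisons.

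All 4 members of the chromosomal passenger complex were among the 10 (3 of 4 with GC and length offsets, Incenp at an edgeR adjusted p of 0.0515). Aurkb (chromosome 11, 69045647 to 69051664, mm10) was at 47.9 and 47.0 CPM in WT control, 49.5 and 45.9 in WT IL-6, 66.0 and 63.2 in HET control and 45.5 and 48.2 in HET IL-6. Only the HET control libraries stood apart from the others, with a log2 difference between HET and WT of 0.44 ± 0.08 (edgeR adjusted p = 0.011). Birc5 was at 0.39 ± 0.09, Cdca8 at 0.38 ± 0.09 and Incenp at 0.31 ± 0.08. The others were Espl1 (0.43 ± 0.09, edgeR adjusted p = 0.0178), Ncapd2 (0.41 ± 0.09), the microtubule motor Kif18b (0.39 ± 0.09), Plk1 (0.38 ± 0.09), Foxm1 (0.35 ± 0.08) and Ube2c (0.35 ± 0.09). Plk1, which matures centrosomes and acts at many steps of mitosis, was at 48.5 and 41.8 CPM in WT control, 44.1 and 39.9 in WT IL-6, 60.7 and 57.0 in HET control and 44.4 and 46.2 in HET IL-6, so that only HET control was set apart. None of the checkpoint, kinetochore, midzone or cytokinesis genes passed, and Bub1b came nearest at 0.30 ± 0.08 (edgeR adjusted p = 0.0508). This split by role changed with the offsets for GC content and transcript length. With them 3 of 5 checkpoint, 3 of 7 centromere and kinetochore and 4 of 6 midzone and cytokinesis genes passed. Bub1b was among them (0.32 ± 0.06, edgeR adjusted p = 0.0112), and Plk1 did not pass (0.26 ± 0.08, edgeR adjusted p = 0.0812). The 5 genes below 0 were Plk4, Esco2, Ncapg, Smc4 and Spc25, between -0.10 and -0.04, and with the offsets all 5 were above 0, between 0.04 and 0.14, none of them called.

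These 10 calls are the least stable of the set: edgeR called 0 genes when library 1 and 0 when library 2 of HET control was left out (15 and 24 genes at an unadjusted p under 0.05), 1 for library 2 and 18 for library 1 of WT control, and 4 for either HET IL-6 library. DESeq2 called 15 and the fit with GC and length offsets 27; without both HET libraries numbered 2 the median was 0.25 with 0 edgeR calls (19 genes at an unadjusted p under 0.05), and without both numbered 1 it was 0.17 with 0 (12 genes).

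After IL-6 the order of the genotypes was the opposite. By edgeR, 29 of the 52 genes were lower in HET than in WT and 0 higher, where 8.8% of all tested genes were lower and 13.2% higher. The median log2 fold change was -0.33, against -0.01 over all tested genes, and in 41 genes both HET libraries lay below both WT libraries, as in 32.3% of all tested genes. With TMM scaling alone, Kif11 had the largest difference, -0.61 ± 0.12 (edgeR adjusted p = 0.00348), followed by Nuf2 (-0.60 ± 0.11, adjusted p = 0.00181 by edgeR), Smc2 (-0.57 ± 0.13), Esco2 (-0.57 ± 0.15), Top2a (-0.57 ± 0.11) and Spc25 (-0.55 ± 0.15). With the offsets these 6 differences shrank, to -0.34 for Kif11, -0.35 for Nuf2, -0.28 for Smc2, -0.25 for Esco2 and -0.32 for Top2a and Spc25, of which Esco2 (edgeR adjusted p = 0.111) and Spc25 (edgeR adjusted p = 0.0982) no longer passed, and Cdk1 came first (-0.35 ± 0.06, edgeR adjusted p = 0.002). Smc2, a core subunit of condensin, was at 163 and 215 CPM in WT control, 247 and 191 in WT IL-6, 199 and 185 in HET control and 152 and 143 in HET IL-6, and its HET IL-6 libraries were the lowest of the 8. By role, 6 of 7 condensin and chromosome structure genes, 5 of 7 centromere and kinetochore genes, 4 of 5 checkpoint genes, 5 of 8 spindle motors and microtubule proteins, 4 of 6 midzone and cytokinesis genes and 4 of 10 cyclins, kinases and regulators were lower. In the cohesion, separation and APC/C group 1 of 5 passed, Esco2, and in the passenger complex 0 of 4, with Birc5 lowest at -0.20 ± 0.09 (edgeR adjusted p = 0.126) and 1 of the 4 at an unadjusted p under 0.05. Spc24 (0.12 ± 0.13), Plk1 (0.11 ± 0.10), Kif18b (0.10 ± 0.09), Cdc20 (0.05 ± 0.11) and Aurka (0.02 ± 0.09) were above 0 and did not pass, and with the offsets all 5 were below 0, between -0.16 and -0.02, and did not pass either. The offsets also changed the counts by role: 5 of 7 condensin and chromosome structure genes, 3 of 7 centromere and kinetochore genes, 2 of 5 checkpoint genes, 2 of 8 spindle motors and microtubule proteins, 3 of 6 midzone and cytokinesis genes, 4 of 10 cyclins, kinases and regulators, 3 of 5 cohesion, separation and APC/C genes (Espl1, Ube2c and Cdca3) and 1 of 4 passenger complex genes (Incenp) were then lower.

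The count fell to 5 when library 2 of HET IL-6 was left out, 15 for its library 1 and 6 for library 1 of WT IL-6, and 4 genes (Ccnb1, Nuf2, Top2a and Mki67) were called in each fit that left out 1 library. Without both HET libraries numbered 2 the median was -0.30 with 4 calls, and without both numbered 1 it was -0.335 with 15.

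Which genes passed in these comparisons of genotype varied with the GC content of their transcripts. GC content ran from 36.5% to 56.1% over the 52 genes. Its Pearson correlation with the log2 difference between HET and WT was 0.858 without IL-6 and 0.87 after IL-6 over the 52 genes, and 0.304 and 0.494 over 13651 tested genes; with per-library offsets for GC content and length it was 0.282 and 0.143 over the 52. The correlation was 0.00149 for the IL-6 response in HET, -0.39 for that in WT and 0.391 for the difference of responses. The log2 of transcript length correlated with the log2 difference between HET and WT at -0.416 without IL-6 and -0.538 after IL-6 over the 52 genes. With the offsets these values were -0.123 and -0.289. The offsets adjust for GC content and length together, so their parts were not separated. Genes of 1 library share its base composition effects, so these correlations are descriptions. Among the 26 GC-poorest genes (up to 47.1%), 0 were called higher in HET without IL-6 and 24 lower after IL-6, and among the 26 GC-richest (from 47.3%) 10 and 5. With the offsets these counts were 10 and 13 among the GC-poorest, and 17 and 10 among the GC-richest.

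With the offsets, the directions of the medians stayed as given and the counts moved: 27 genes were higher in HET without IL-6 (2.58% of all tested genes), 23 lower in HET after IL-6 (4.02%), 47 fell with IL-6 in HET (13.3%), and 42 had a lower response in HET than in WT (6.14%). The medians were 0.25, -0.19, -0.43 and -0.45. In WT 4 genes then rose with IL-6 (10.6% of all tested genes) and 2 fell (12.9%). Of the calls made without offsets, 8 of 10, 17 of 29, 40 of 40 and 29 of 29 were also made with them, and the sign of the log2 difference turned for 5 genes without IL-6, for 7 after IL-6 (the 5 named above, with Anln and Pttg1 turning from below to above 0) and for 5 in the WT response, none of them called in either fit. What made library composition differ with GC content was not tested.

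**Figure D4:**
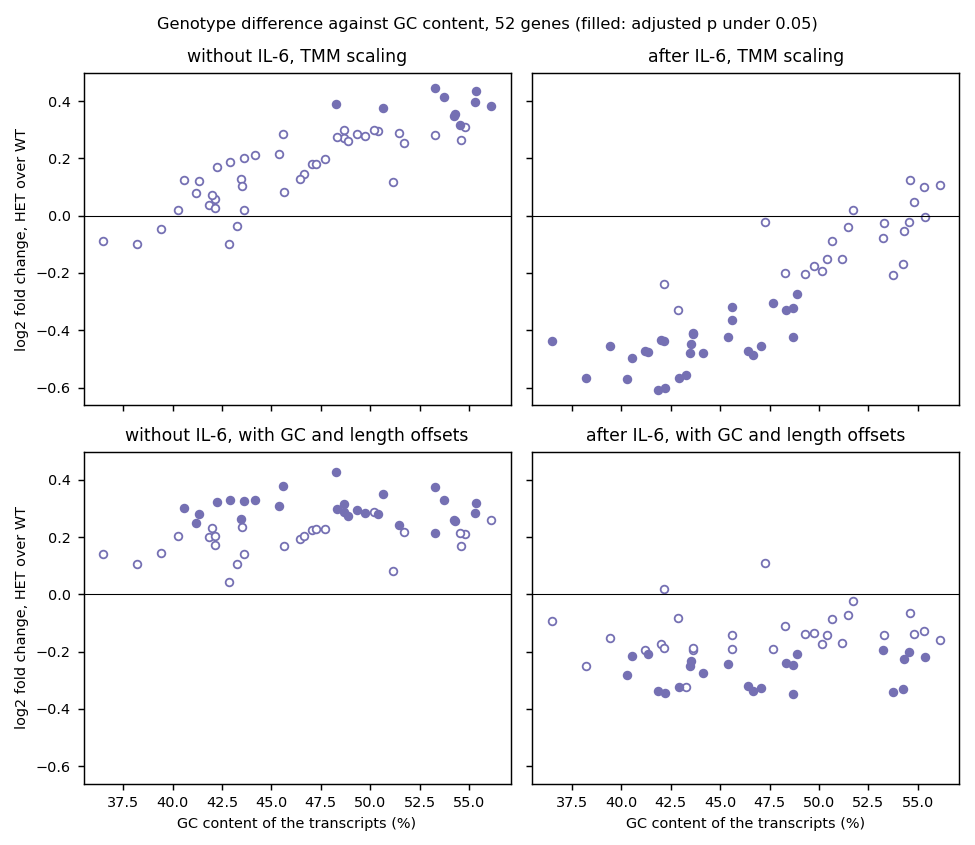
Log2 difference, HET minus WT, against the GC content (%) of each of the 52 genes, without IL-6 (left) and after IL-6 (right), as fitted with TMM scaling (top) and with GC and length offsets (bottom); filled points have an adjusted p under 0.05. The slope of the upper panels is largely gone in the lower panels, where values lie above 0 without IL-6 and mostly below 0 after IL-6.

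Other genes of the division programme were taken from lists drawn up by function. In HET, where 9.41% of all tested genes fell and 8.87% rose, IL-6 was followed by a fall of 21 of 40 DNA replication genes (median -0.335), among them the replicative helicase subunits Mcm6 (-0.50 ± 0.08) and Mcm5 (-0.50 ± 0.08) and the initiation factor Mcm10 (-0.62 ± 0.08, edgeR adjusted p = 0.000127). It was followed by a fall of 19 of 37 other spindle, centrosome and cytokinesis genes (median -0.341), such as the kinesin Kifc1 (-0.60 ± 0.08) and the microtubule binder Nusap1 (-0.58 ± 0.10). Of 28 genes of mitotic entry, E2F, RB and DREAM control 14 fell, including B-Myb (Mybl2, -0.67 ± 0.11) and E2f2 (-0.55 ± 0.08). Of 34 centromere and kinetochore partners 10 fell, such as Kntc1 (-0.47 ± 0.09) of the checkpoint complex that recruits dynein, and of 16 condensin II and cohesin genes 4 fell, such as the cohesin subunit Rad21 (-0.37 ± 0.08). Each of these 5 lists had 0 genes rising. With the offsets the counts that fell were 29, 23, 16, 18 and 8 in the same order, and without both HET libraries numbered 2 they were 4, 3, 3, 1 and 0 by edgeR (21, 16, 12, 10 and 3 genes at an unadjusted p under 0.05), with medians of -0.398, -0.352, -0.276, -0.324 and -0.205.

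In WT, where 10.4% of all tested genes fell and 7.91% rose, IL-6 was followed by a rise of 5 of the 40 replication genes (12.5%) and a fall of 0 (11 and 1 with the offsets), with cyclin E1 (Ccne1) at 0.62 ± 0.10 and the licensing factor Cdc6 at 0.43 ± 0.11. Among the 37 other spindle genes 3 fell and 0 rose, or 8.11% and none, a share no higher than that of all tested genes; they were Psrc1 (-1.02 ± 0.16), Kifc1 (-0.40 ± 0.08) and Troap (-0.39 ± 0.12). Between genotypes without IL-6, 2.81% of all tested genes were higher in HET and 2.05% lower. Of the 34 centromere and kinetochore partners 1 was higher and 0 lower (4 and 0 with the offsets). Of the 16 condensin II and cohesin genes 0 were higher and 0 lower, also with the offsets, with medians of -0.06 and 0.08. Of the 40 replication genes 11 were higher and 0 lower, with Mcm5 at 0.50 ± 0.08. Of the 28 regulators 5 were higher, among them Mybl2 (0.56 ± 0.11) and E2f7 (0.47 ± 0.09), and of the 37 other spindle genes 3, both with 0 lower. These 3 counts were 18, 5 and 6 with the offsets and 3, 1 and 0 without both HET libraries numbered 2 (16, 8 and 7 genes at an unadjusted p under 0.05 by edgeR). After IL-6 8.8% of all tested genes were lower in HET and 13.2% higher. Of the 28 regulators 10 were lower and 3 higher, Pkmyt1 among the 3 (0.50 ± 0.11, and 0.09 with the offsets). Of the 34 centromere and kinetochore partners 11 were lower and 0 higher. With the offsets 5 regulators and 3 partners were lower and 0 of either higher. Of the 40 replication genes 17 were lower (Rrm1 at -0.51 ± 0.09) and of the 37 other spindle genes 13 (Nusap1 at -0.49 ± 0.10). So were 10 of the 16 condensin II and cohesin genes, and each of these 3 lists had 0 higher. These counts were 13, 5 and 3 with the offsets and 2, 2 and 0 without both HET libraries numbered 2 (14, 7 and 7 genes at an unadjusted p under 0.05 by edgeR).

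**Figure D5:**
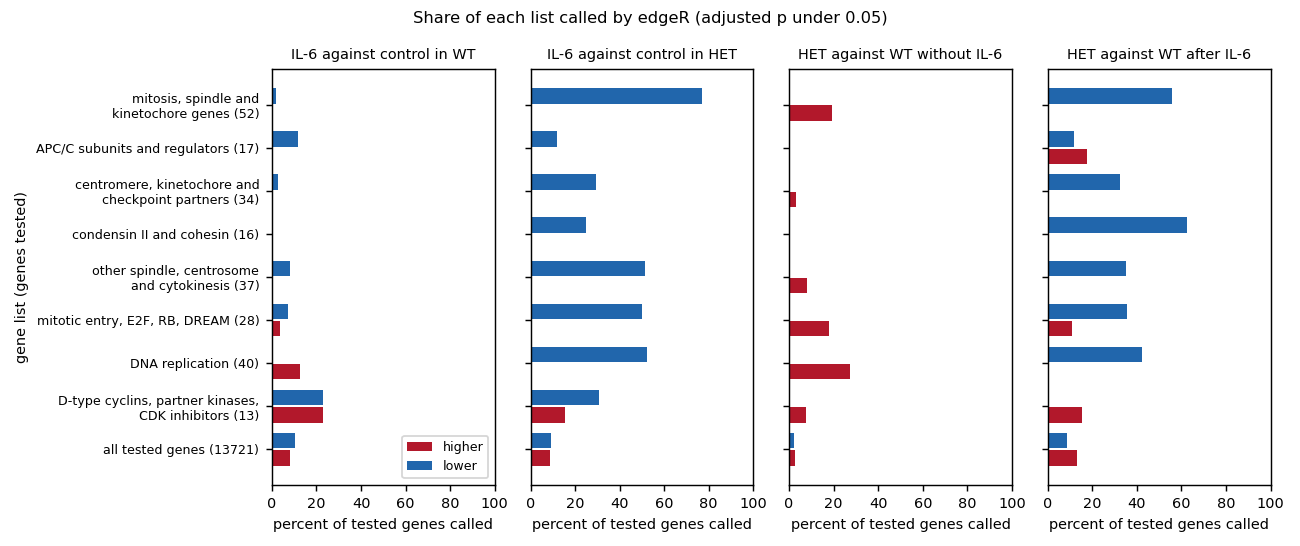
Percent of tested genes called higher (red) or lower (blue) by edgeR in 4 comparisons, for the 52 mitosis, spindle and kinetochore genes, 7 other lists (number of genes in brackets) and all tested genes. The 52 genes have blue bars of 40 of 52 in HET with IL-6 and 29 of 52 in HET against WT after IL-6, a red bar of 10 of 52 without IL-6, and nearly none in WT.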

How the data were processed

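Polyadenylated RNA of 8 macrophage libraries, 2 for each of 4 groups, was sequenced after a stranded preparation, per the labels. The authors deposited whole-number read counts per gene; tools in the submitters' processing notes are STAR 2.7.9a, featureCounts 1.6.2, SAMtools 1.9 and fastp 0.12.4, with build mm10. Neither the annotation release nor the strand option of featureCounts is given in the sources used here, so reads of overlapping genes could not be separated. Columns were matched to libraries by name. Gene models of GENCODE M21, matched by position for 99.4% of genes, gave length, GC content and overlap; promoters came from RefSeq (GRCm38.p6).

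The deposited counts were analysed in R 4.3.3 with edgeR 4.0.16: filterByExpr at a minimum count of 10 (13721 genes), TMM scaling, 1 mean per group over all 8 libraries, robust quasi-likelihood F tests with 4 residual degrees of freedom, 2-sided, and Benjamini-Hochberg adjustment over all tested genes. A gene was called at an adjusted p under 0.05, for 5 comparisons. Values after ± are standard errors. The median size of the log2 difference between the libraries of a group over the 52 genes was 0.171 (control) and 0.17 (IL-6) in WT, and 0.0847 and 0.064 in HET, while the test shares 1 spread over the groups. No pair of libraries agreed within sampling noise. The analysis was tested on simulated data.

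Any of the 52 genes could be named; full values went to the smallest p of each role and comparison, to the extremes and to genes against the median's sign, and of the other lists up to 4 genes by smallest p. The members, roles and lists were chosen with earlier results of these data known. Alternatives were DESeq2 (1.42.0) size factors and test, total-count scaling, no filter, GC and length offsets (smoothed per library), the replicate number as a block, fits of only the groups compared, thinning of the deepest library, and leaving out libraries; fits leaving out both libraries of a number, and blocks within a genotype, were added after the data were seen.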

Additional observations from a re-analysis of the deposited data

Results flagged for a closer look

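The IL-6 response of 29 of the 52 genes differed between the genotypes by the interaction term of edgeR's fit (adjusted p under 0.05). Each is drawn out here for that reason. Of all tested genes, 3.6% passed as lower in HET and 4.52% as higher. The count of 29 was 18 with the replicate block, 9 with a block within genotype and 42 with GC and length offsets. The values that follow are HET minus WT differences of the log2 response in the main fit, and each is below 0. The difference was -0.77 for Nuf2, -0.76 for Top2a, -0.69 for Cdk1 and Ccnb1, -0.65 for Melk, -0.64 for Prc1 and Kif11. It was -0.63 for Kif4 and Mki67, -0.62 for Bub1b, Ncapd2 and Bub1, -0.61 for Cenpe and Ndc80, -0.60 for Ncaph, Ect2 and Ccna2. It was -0.59 for Birc5, -0.55 for Cenpf, -0.53 for Kif20a, -0.52 for Ube2c, -0.50 for Tpx2, -0.49 for Ccnb2, -0.47 for Aurkb and Cdca8, -0.46 for Racgap1, -0.45 for Kif2c, -0.41 for Foxm1, -0.40 for Kif23. By role, these values run through the whole apparatus, from the kinases that start mitosis (Cdk1, Ccnb1) through the kinetochore (Nuf2, Ndc80) to the midzone (Kif23, Prc1). In the fits that each left out 1 library, Cdk1, Ccnb1, Melk and Kif4 were called every time and the sign stayed below 0 for 29 of 29.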

How the results depend on the processing

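Each group held 2 libraries, and the lowest count of any of the 52 genes in any library was 163. Over the fits that left out 1 library, the number of genes called ran from 1 to 9 for IL-6 in WT, 18 to 46 for IL-6 in HET, 0 to 18 for HET against WT without IL-6, 5 to 32 after IL-6, and 4 to 35 for the difference of responses. The medians ran from 0.0093 to 0.1554, -0.49 to -0.4036, 0.1454 to 0.2595, -0.4081 to -0.2408 and -0.5934 to -0.411 in the same order.

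For IL-6 in WT, the count of 1 became 2 with DESeq2 size factors, 2 with the DESeq2 test, 3 without the filter and 6 with GC and length offsets. Without both WT libraries numbered 1 it was 8 and the median turned to -0.0302, and without both numbered 2 it was 28 and 0.1965. For IL-6 in HET, the count of 40 was 4 without both HET libraries numbered 1 and 12 without both numbered 2. For HET against WT without IL-6, the count of 10 was 27 with the offsets, 5 when only the 2 groups were fitted, 24 and 22 without both WT libraries numbered 1 or 2 (medians 0.1458 and 0.2617), and 0 and 0 by edgeR without both HET libraries numbered 1 or 2 (12 and 19 genes at an unadjusted p under 0.05). After IL-6 the median was -0.193 with the offsets, -0.2426 and -0.4091 without both WT libraries numbered 1 or 2, and the count was 15 and 4 without both HET libraries numbered 1 or 2. For the difference of responses the count was 44 without both WT libraries numbered 2, 0 (edgeR, 28 genes at an unadjusted p under 0.05) without both HET libraries numbered 1 and 3 without both numbered 2, and the median was -0.4067 and -0.648 without both WT libraries numbered 1 or 2. Scaling to total counts and thinning the deepest library moved no count by over 1.5 times. Why the counts and medians moved was not tested.

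Replicate numbers are shared between groups, but the labels do not tie a number to a mouse. The differences between numbers 1 and 2 correlated at -0.113 between WT control and WT IL-6, 0.152 between HET control and HET IL-6 and -0.059 to 0.0312 between genotypes over 13721 genes. The numbers were not taken to pair the libraries in the main fit, because the labels do not say that they mark a mouse. The names of the count columns attach the number to the genotype, without saying what it marks. In HET, Dnmt3a was lower in both libraries numbered 1 (166 and 140.1 CPM) than in both numbered 2 (248 and 213). With the replicate block 5 genes were called for HET against WT without IL-6 and 18 for the difference of responses. A block within each genotype gave 9 for the difference of responses. For IL-6 in HET it gave 29, against 40 without a block, and 46 with the offsets added. With the block and the offsets together, 6 genes were called for IL-6 in WT, 4 of them rising. The block within genotype with the offsets gave 4, with 3 rising. With the replicate block and the offsets, 28 were called for HET against WT without IL-6, and the median after IL-6 was -0.1915. With the WT numbers crossed in the block, 16 genes were called for IL-6 in WT, 15 of them rising. That fit gave 47 for the difference of responses.

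Among the genes named, signs turned only for genes that were called neither in these fits nor with the settings as reported. In HET against WT without IL-6, the offsets, the replicate block with offsets, and leaving out both WT libraries numbered 2 gave 0.0432, 0.0445 and 0.1347 for Plk4, 0.1071, 0.1047 and 0.0835 for Esco2, 0.1416, 0.1383 and 0.1021 for Ncapg, 0.1436, 0.1424 and 0.1557 for Smc4, and 0.1056, 0.1028 and 0.1228 for Spc25. Without both HET libraries numbered 2, Ncapg was at 0.0028 and Spc25 at 0.002. Over the fits that left out 1 library these ran from -0.3058 to 0.1323 for Plk4, -0.2634 to 0.0814 for Esco2, -0.2597 to 0.1001 for Ncapg, -0.2245 to 0.1534 for Smc4 and -0.1817 to 0.1206 for Spc25, each highest without WT control number 2. In HET against WT after IL-6, the offsets and the replicate block with offsets gave -0.0634 and -0.0538 for Spc24, -0.1267 and -0.1248 for Kif18b, -0.1587 and -0.1506 for Plk1, -0.1387 and -0.1374 for Cdc20, and -0.0215 and -0.0214 for Aurka. Without both WT or both HET libraries numbered 1, Cdc20 was at -0.0557 and -0.0222 and Aurka at -0.0568 and -0.0062, and leaving out 1 library gave -0.0529 to 0.1477 and -0.0555 to 0.0949. In the difference of responses, leaving out both WT libraries numbered 1 gave 0.0021 for Spc24 and 0.1064 for Plk4, and both numbered 2 gave 0.0467 for Pttg1.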

Other observations

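Of 13 D-type cyclins, partner kinases and CDK inhibitors, which act before the S phase, 3 rose and 3 fell with IL-6 in WT (7.91% and 10.4% of all tested genes) and 2 rose and 4 fell in HET (8.87% and 9.41%). With GC and length offsets 4 rose and 2 fell in WT and 2 rose and 5 fell in HET, and without both HET libraries numbered 2 edgeR called only Ccnd1 in HET, with 4 genes at an unadjusted p under 0.05. The inhibitor p27 (Cdkn1b) rose in WT (0.72 ± 0.10, edgeR adjusted p = 0.000133), as did the kinase Cdk6 (0.39 ± 0.09). Cyclin D1 (Ccnd1) fell in HET (-0.61 ± 0.09, edgeR adjusted p = 0.00028), and so did the inhibitor Cdkn2c (-0.50 ± 0.08), while the inhibitor Cdkn2d rose in both (WT 0.33 ± 0.09, HET 0.48 ± 0.08). The inhibitor Cdkn1c fell in both (WT -1.91 ± 0.47, HET -1.98 ± 0.44). Without IL-6 cyclin D3 (Ccnd3) was higher in HET (0.50 ± 0.09), also with the offsets (0.35) and without both HET libraries numbered 2 (0.56). After IL-6 Cdkn2a (0.71 ± 0.19) and Cdkn2d (0.33 ± 0.08) were higher in HET, but neither was called with the offsets (0.31 and 0.06) or without both HET libraries numbered 2 (0.41 and 0.32).

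Of 17 subunits and regulators of the APC/C, most of which are present throughout the cell cycle, 2 (11.8%) fell and 0 rose with IL-6 in each genotype, close to the share of all tested genes that fell (10.4% in WT and 9.41% in HET), so these counts say nothing particular to the APC/C. They were Anapc15 in both (WT -0.41 ± 0.10, HET -0.38 ± 0.10), Anapc16 in WT (-0.41 ± 0.10) and Anapc5 in HET (-0.34 ± 0.07). Without both HET libraries numbered 2 the HET values were -0.27 for Anapc15 and -0.37 for Anapc5. After IL-6 3 were higher in HET than in WT (17.6%, against 13.2% of all tested genes) and 2 lower (11.8%, against 8.8%). With the offsets 2 were higher and 0 lower. The G1 activator Fzr1 went from 0.55 ± 0.09 to 0.09 and the inhibitor Fbxo5 from -0.40 ± 0.12 to -0.21, neither then called. Anapc16 was at 0.44 ± 0.10 and 0.49, called in both. Without both HET libraries numbered 2, Fzr1 was at 0.49, Fbxo5 at -0.39 and Anapc16 at 0.53.

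Among the 43 genes with a promoter window, the median log2 fold change of IL-6 in HET was -0.417 in the 33 with CHR letters and -0.447 in the 10 without, a description with no test.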
